A study of Mus musculus with 12 samples.

Results

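The 10 genes described here encode the transforming growth factor beta (TGF-beta) ligands (Tgfb1, Tgfb2, Tgfb3), their receptors (Tgfbr1, Tgfbr2, Tgfbr3) and the Smad proteins that carry the signal (Smad2, Smad3, Smad4, Smad7). Chromatin accessibility at these genes was measured by ATAC-seq, in which the transposase Tn5 cuts and tags open DNA. A region is a stretch of the genome covered by merged peaks of the 12 libraries, and it was assigned to a gene when it lay in the gene body or within 10 kb upstream of a transcription start site (TSS). Of 263785 regions, 171 belonged to the 10 genes, and 39 of these had a peak in all 12 libraries.

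The cells were primary cortical neurons of wild-type C57BL/6 mouse embryos at embryonic day 18, with 3 libraries in each of 4 groups and all libraries labelled batch 1. PBS cultures received vehicle for 7 days, and PFF cultures received pre-formed fibrils of alpha-synuclein, which seed its aggregation, for 7 days. PFF+MLi-2 cultures received the same fibrils with the LRRK2 kinase inhibitor MLi-2 over the last 5 days. PFF+Rab5 ASO cultures received the fibrils and, over the last 3 days, antisense oligonucleotides (ASO) directed at Rab5, a GTPase of early endosomes. None of these groups is labelled as inhibitor or ASO without fibrils or as a control ASO, so an effect of either treatment on unexposed neurons cannot be told apart from one in fibril-treated neurons. For both treated groups the free-text label gives PBS where the title and treatment label give PFF, and the groups follow the latter.

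TGF-beta ligands are secreted in a latent complex and, once released, bind the type II receptor Tgfbr2, which recruits and phosphorylates the type I receptor Tgfbr1. The co-receptor Tgfbr3 (betaglycan) presents ligand, in particular Tgfb2. Activated Tgfbr1 phosphorylates Smad2 and Smad3, which join the common mediator Smad4 and enter the nucleus, whereas Smad7 is induced by the signal and blocks the receptor. In the cortex, neurons make chiefly Tgfb2 and Tgfb3, while Tgfb1 is best known from glia. The pathway is also known for its part in neuronal survival and in cellular senescence.

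The first set of sequences shows the start sites of the ligand and the receptor gene whose regions are described most. It gives the 250 bases upstream of the RefSeq start site (GRCm38) of Tgfb2 (chr1:186705990-186706239) and Tgfbr2 (chr9:116175364-116175613), both given 5′ to 3′ on the gene's own strand, which is the minus strand. Capitals mark the E-box CACGTG. The Tgfbr2 stretch overlaps its promoter region described below, whereas the Tgfb2 stretch overlaps the weaker region Tgfb2 r2 (chr1:186705858-186706198) and not the Tgfb2 promoter region.
Tgfb2 upstream: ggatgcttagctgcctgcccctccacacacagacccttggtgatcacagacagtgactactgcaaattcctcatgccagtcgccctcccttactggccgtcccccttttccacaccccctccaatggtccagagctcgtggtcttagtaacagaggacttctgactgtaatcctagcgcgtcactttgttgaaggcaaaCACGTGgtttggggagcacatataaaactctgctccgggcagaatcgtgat
Tgfbr2 upstream: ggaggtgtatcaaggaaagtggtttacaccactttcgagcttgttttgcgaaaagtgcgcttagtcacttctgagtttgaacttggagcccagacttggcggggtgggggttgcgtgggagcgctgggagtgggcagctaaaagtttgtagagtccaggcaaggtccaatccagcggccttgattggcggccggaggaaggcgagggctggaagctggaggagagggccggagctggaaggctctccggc

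The E-box began 51 bp upstream of the Tgfb2 start. Tgfb2 r2, which covers it and the RefSeq start, was called in 10 of 12 libraries (2 with PBS, 2 with PFF, 3 with MLi-2 and 3 with the Rab5 ASO), so its height was not tested. Its fold enrichment lay at within-library percentiles of 43.4 and 52.8 with PBS and 51.0 and 16.3 with PFF. These were 2.5, 10.9 and 14.6 with MLi-2 and 50.3, 35.6 and 14.7 with the Rab5 ASO. Promoter windows from 250 bp before to 50 bp after a start were matched for 5 of the 10 genes (6 windows in Tgfb1, Tgfb2, Tgfbr1, Tgfbr2 and Smad3), and of these only the Tgfb2 window held CACGTG, which occurred in 7.15% of all 32851 windows of that length. The extended Smad box CAGACA occurred in the windows of Tgfb2 and Tgfbr1 (21.0% of all windows) and the GC-rich element GGCGC in those of Tgfb1 and Tgfbr1 (36.9%). The palindromic Smad box GTCTAGAC, the AP-1 site TGACTCA and the CRE TGACGTCA were not found in the 6 windows. Motifs were searched on both strands, and a match describes the sequence only.

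The second set gives 101 bases centred on the summit of some of the intronic or upstream regions that were called in one group and not in another, or that changed in height (GRCm38, plus strand). Capitals mark matches to the motifs above on either strand.
Tgfb2 r16, chr1:186646625-186646725: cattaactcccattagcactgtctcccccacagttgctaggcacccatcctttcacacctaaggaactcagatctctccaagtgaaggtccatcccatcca
Tgfb2 r20, chr1:186627762-186627862: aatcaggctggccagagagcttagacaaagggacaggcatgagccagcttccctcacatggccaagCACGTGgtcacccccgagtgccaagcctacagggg
Tgfbr1 r7, chr4:47407292-47407392: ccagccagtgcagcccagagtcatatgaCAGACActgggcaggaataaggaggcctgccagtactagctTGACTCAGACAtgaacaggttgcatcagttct
Tgfbr2 r1, chr9:116185082-116185182: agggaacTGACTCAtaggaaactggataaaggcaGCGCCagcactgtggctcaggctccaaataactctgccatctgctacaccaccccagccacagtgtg
Tgfbr2 r4, chr9:116166426-116166526: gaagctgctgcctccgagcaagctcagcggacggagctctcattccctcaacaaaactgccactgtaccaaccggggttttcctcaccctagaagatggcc
Tgfbr2 r11, chr9:116138735-116138835: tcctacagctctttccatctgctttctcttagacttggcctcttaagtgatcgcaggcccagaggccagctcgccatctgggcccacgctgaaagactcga
Tgfbr2 r15, chr9:116122702-116122802: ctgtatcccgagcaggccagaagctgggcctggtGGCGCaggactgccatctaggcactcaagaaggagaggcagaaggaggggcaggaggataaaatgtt

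Tgfb2 r20 held an E-box CACGTG 16 bp from its summit. Tgfbr1 r7 held a CAGACA that overlaps an AP-1 site TGACTCA and a second CAGACA on the other side of the summit. Tgfbr2 r1 held TGACTCA and GGCGC, and Tgfbr2 r15 held GGCGC. Within 100 bp of the summit, CACGTG occurred in 11 of the 171 regions (6.43%), beside 3.52% of all regions whose window could be read. The same shares were 23.4% and 20.1% for CAGACA, 15.2% and 13.6% for GGCGC and 8.19% and 7.52% for TGACTCA. GTCTAGAC and TGACGTCA each occurred in 1 of the 171 regions (0.585%, beside 0.177% and 0.406% of all). These shares are descriptions, and none was tested.

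The libraries held peaks near the detection limit as well as strong promoters. The number of fragments stacked at a summit was recovered from the deposited fold enrichment and p-value, and its median was 16 to 18 per library. The relative depth of the libraries, scaled to a mean of 1, ran from 0.775 to 1.31. Its mean was lowest for PFF (0.843 ± 0.0728, SD, n = 3) and highest for PFF+Rab5 ASO (1.22 ± 0.149), with PBS at 0.939 ± 0.0333 and PFF+MLi-2 at 0.999 ± 0.0373, and its part in the comparisons below was not tested. Peak lists also differed by group in their narrowest entry. It spanned 53 to 59 bp with the Rab5 ASO, as against 62 to 66 bp for every other group. The part of this difference in the calls below was not tested. All 12 promoters of a list of cortical neuron markers had a peak in every library. Of 6 microglial markers none had a promoter peak in every library, and Cx3cr1, Aif1 and Itgam had none in any. Promoters of 4 of 6 astrocyte, 4 of 6 oligodendrocyte-lineage, 6 of 6 progenitor and 1 of 6 fibroblast and vascular markers were called in every library, so an open promoter did not separate neurons from the other neural cells. Calls at some of these promoters varied between groups, as did calls over all regions. Per library, 50.1% of all regions were called with PBS, 53.1% with PFF, 46.5% with MLi-2 and 54.0% with the Rab5 ASO. Genome-wide, 2.64% of regions were called in 3 of 3 PFF+Rab5 ASO libraries and 0 of 3 PFF libraries, and 1.94% the reverse. Summed over the 3 libraries of a group, the 6 microglial promoters were called 7 times with PFF and 2 to 3 times in the other groups, with Tmem119 in all 3 PFF libraries and in none with the Rab5 ASO. The 6 fibroblast and vascular promoters were called 7 times with the Rab5 ASO, 5 times with PFF and 3 times in each other group, with Lum in all 3 PFF+Rab5 ASO libraries and in none of the other 9. Astrocyte promoters were called 16 to 18 times and oligodendrocyte-lineage promoters 13 to 15 times, and Sox10 was called in 1 PFF+Rab5 ASO library and in 2 or 3 of each other group. The part of these cells in the results below was not tested.

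The 10 genes differed widely in how many accessible regions they held. Tgfbr3 had 36 regions, Smad3 32, Tgfbr2 27 and Tgfb2 20, whereas Smad7 had 13, Tgfb3 10, Tgfb1 9, Tgfbr1 9, Smad4 8 and Smad2 7. Tgfb3 had the largest share of regions present in all 12 libraries (6 of 10), and Tgfb1 and Tgfbr1 had 1 such region each. Over the 10 genes, 22.8% of regions were present in all 12 libraries and 24.0% in a single library, beside 27.5% and 26.6% of all regions.

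The number of these regions called per library followed the number called genome-wide. Of the 171 regions, 101, 65 and 82 were called in the PBS libraries and 98, 96 and 82 in the PFF libraries. With MLi-2 the counts were 79, 76 and 81, and with the Rab5 ASO 92, 91 and 82. The ranges of PBS and PFF overlapped, the PFF+MLi-2 libraries lay below the PFF libraries, and PBS replicate 1 and PBS replicate 2 were the highest and lowest of all. As a share, the PBS libraries called 48.3% ± 10.5 of these regions and 50.1% ± 8.08 of all regions, and the PFF libraries 53.8% ± 5.10 and 53.1% ± 3.66 (SD, n = 3). With MLi-2 these shares were 46.0% ± 1.47 and 46.5% ± 0.364, and with the Rab5 ASO 51.7% ± 3.22 and 54.0% ± 4.37. By gene, Tgfb2 went from 12, 10 and 8 regions in PFF to 6, 7 and 6 in PFF+MLi-2, and Tgfbr2 from 14, 14 and 16 to 10, 11 and 11. Smad2 likewise went from 5, 5 and 3 to 2, 1 and 2, and Smad3 from 18, 22 and 18 to 16, 15 and 17. These groups did not overlap for any of the 4 genes, which were picked out after their values were seen. The libraries with MLi-2 also all lay below the PFF libraries at 15.6% of the 8932 genes with 7 or more regions, and the shares of all regions called did not overlap either. With the same number of top peaks taken from every library, the groups overlapped for Tgfb2, Tgfbr2 and Smad2. Smad3 then still had fewer regions in each library with MLi-2 (15, 15 and 16) than in each PFF library (17, 18 and 17), and Smad7 had more (7, 8 and 8 against 6, 5 and 5). With equal numbers of top peaks, all libraries with MLi-2 lay below all PFF libraries at 6.65% of 7395 genes and above them at 2.03%.

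**Figure D1:**
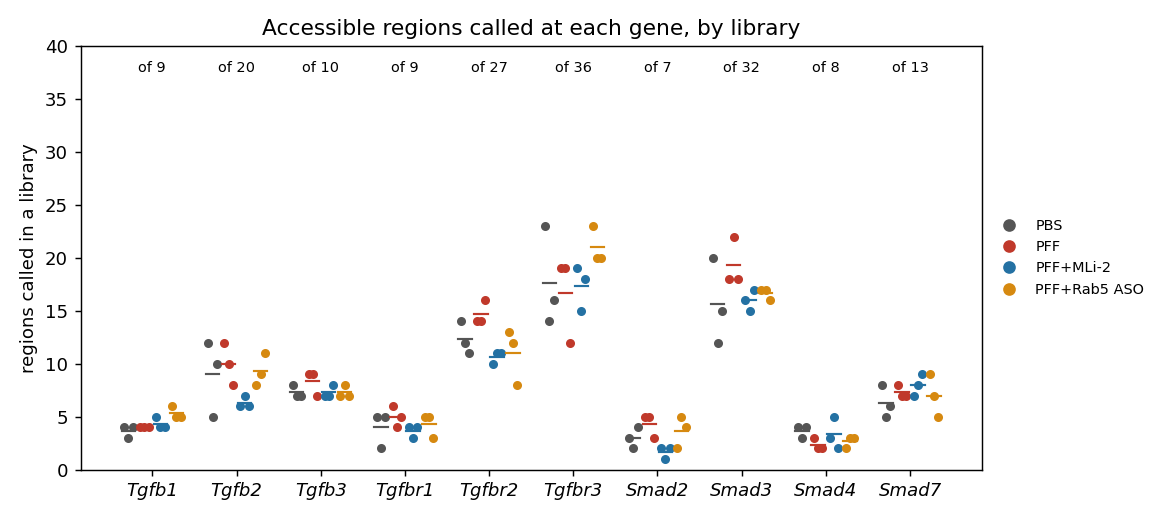
Number of accessible regions called at each gene (vertical axis) in each library; points are libraries, horizontal bars are group means (n = 3) and the label over each gene is its total number of regions. Tgfbr3, Smad3 and Tgfbr2 carry most regions, and PFF+MLi-2 libraries lie below PFF libraries at Tgfb2, Tgfbr2, Smad2 and Smad3.

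Height was expressed as the percentile of a region's fold enrichment within its own library, where 100 is the strongest. All 10 genes had a called region within 1 kb of a start site, but not at the same height. Smad4, the common mediator, had the strongest promoter region (chr18:73703230-73704318), at mean percentiles of 98.0 with the Rab5 ASO and 96.5 to 96.6 in the other groups. The co-receptor Tgfbr3 (chr5:107289136-107289802) lay at 94.4 to 95.9 and the type I receptor Tgfbr1 (chr4:47352806-47353781) at 93.2 to 95.0 over the 4 group means. Smad3 (chr9:63757841-63758513) lay at 86.0 to 88.6 and Smad2 (chr18:76241091-76242433) at 84.4 to 86.0. In no library did any of these 5 promoter regions lie below a percentile of 82.6.

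The ligand promoters were lower than these, as were those of Tgfbr2 and Smad7 given further below. The Tgfb2 promoter region (chr1:186705178-186705740, first exon and 5′ UTR) had mean percentiles of 79.9 ± 9.62 with PBS, 74.8 ± 3.00 with PFF, 69.2 ± 2.63 with PFF+MLi-2 and 70.9 ± 7.66 with PFF+Rab5 ASO (SD, n = 3). That Tgfb2 region covers an annotated start but lies downstream of the RefSeq start, which Tgfb2 r2 covers, and it also overlaps Gm29491. The Tgfb3 promoter region (chr12:86079265-86079692) lay at 66.8 to 71.7 over the group means. At Tgfb1 the region nearest its first start site (Tgfb1 r3, 60 bp upstream) was called only in 2 libraries with MLi-2 and 2 with the Rab5 ASO. Tgfb1 r1, farther upstream and more than 1 kb from an annotated start, was called in every library at percentiles of 82.8 to 90.6. The highest region of Tgfb1 within 1 kb of an annotated start, and thus its promoter region here, was Tgfb1 r6 (chr7:25689217-25689516, exonic, 290 bp downstream of an internal start), which was called in 9 of 12 libraries. It was called in PBS replicate 3 alone of the PBS libraries at a percentile of 34.0, in the PFF libraries at 58.9, 28.0 and 40.4, in the PFF+MLi-2 libraries at 4.1, 11.0 and 35.2, and in 2 PFF+Rab5 ASO libraries at 6.7 and 14.8.

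After Tgfb1 r6, the promoter regions whose group means spread most were those of Tgfbr2 and Smad7. The Tgfbr2 promoter region (chr9:116174961-116175507) lay at 88.7, 87.7 and 70.9 in the PFF libraries and at 77.0, 59.2 and 58.5 in the PBS libraries. It lay at 58.7, 75.2 and 80.1 with MLi-2 and at 80.8, 73.9 and 45.7 with the Rab5 ASO. The 4 groups overlapped. The Smad7 promoter region (chr18:75366479-75367904) lay at 74.0, 76.0 and 78.4 in the PFF+Rab5 ASO libraries, at 59.2, 64.3 and 65.7 with PBS, at 62.7, 59.8 and 53.6 with PFF and at 58.0, 63.0 and 69.6 with PFF+MLi-2. The 3 PFF+Rab5 ASO libraries were above the other 9, and the tests of this region are given with the Rab5 ASO comparisons.

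**Figure D2:**
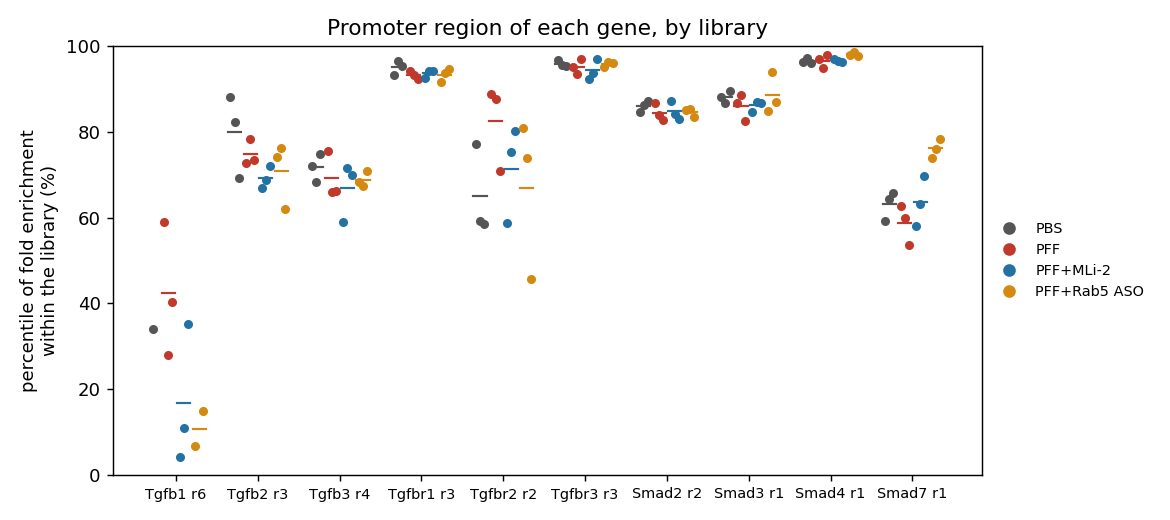
Percentile of fold enrichment (0 to 100%) of the promoter region of each gene in each library; points are libraries and horizontal bars group means. Smad4, Tgfbr3 and Tgfbr1 stay near the top in all groups, Tgfbr2 spreads within groups, and Smad7 is higher in the 3 PFF+Rab5 ASO libraries.

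To ask what fibrils alone changed, PFF was compared with PBS. A region counted as gained if it had a peak in 3 of 3 libraries of the group named first and in 0 of 3 of the other, and as lost if the reverse held. With 3 libraries against 3 an exact test of one region cannot go below 0.1, so these calls carry no p-value. Of 142 regions of the 10 genes with a peak in these libraries, 2 were gained and 0 lost, while genome-wide 1.10% of 216981 regions were gained and 0.405% lost. Both gained regions were intronic and in receptor genes. Tgfbr1 r7 (chr4:47407298-47407472) was called in the PFF libraries with 14, 12 and 11 fragments at the summit and in no PBS library. Tgfbr2 r15 (chr9:116122681-116122780) was called with 14, 11 and 12 fragments and was seen in no library of any other group. These counts lie under the median summit of their libraries, and the lists give no value where no peak was called, so an uncalled region is one that was not detectable at this depth.

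Heights were tested over the 72465 regions present in all 12 libraries, as normal scores of the fold rank with limma. In PFF vs PBS 0 regions passed an adjusted p of 0.05 (0% of all regions), and 5 of the 39 regions of the 10 genes had an unadjusted p under 0.05 (3 higher, 2 lower), beside 9.72% of all regions. Without PFF replicate 2 or PFF replicate 3 this count was 3, beside 7.89% and 8.08% of all regions. It was 7 (3 higher, 4 lower) without PBS replicate 2, beside 9.08%. The groups did not overlap at 4 of the 39 regions (10.3%), beside 15.1% of all regions. Tgfb3 r3 (chr12:86082471-86082773, 3430 bp upstream of Tgfb3 and within Ift43) had the smallest p. It lay at percentiles of 45.0, 52.6 and 53.9 in PBS and 23.2, 27.3 and 26.5 in PFF, a score difference of -0.74 (SE 0.232, limma adjusted p = 0.353). Tgfb2 r20 (chr1:186627535-186627896, an intronic region 22094 bp downstream of an annotated start) lay at 83.6, 71.0 and 78.5 in PBS and 91.0, 86.7 and 96.1 in PFF, a difference of 0.79 (SE 0.259, limma adjusted p = 0.367). Both are among the 4 regions at which groups did not overlap. The Tgfbr2 promoter region differed by 0.77 (SE 0.274, limma adjusted p = 0.404) with overlapping groups. The median difference over the 39 regions was -0.11 (-0.04 when ranked by -log10 p-value), beside -0.02 over all regions.

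To ask whether LRRK2 inhibition altered regions in fibril-treated neurons, PFF+MLi-2 was compared with PFF. Of 140 regions, 0 were gained and 3 lost (genome-wide 0.374% gained and 1.64% lost of 205235). Of these, 2 were intronic regions of Tgfbr2 and 1 lay 6111 bp upstream of Smad2. Tgfbr2 r15, described above, was lost, as was Tgfbr2 r11 (chr9:116138731-116138979), which had 12, 10 and 15 fragments in PFF. Smad2 r1 (chr18:76235275-76235469) had 14, 11 and 9 fragments in PFF. Outside PFF, Tgfbr2 r11 was called in 1 PBS and 1 PFF+Rab5 ASO library, and Smad2 r1 in 1 PBS and 2 PFF+Rab5 ASO libraries.

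By limma 0 regions passed in this comparison (0% of all regions), and 6 of 39 had an unadjusted p under 0.05 (3 higher, 3 lower), beside 11.4% of all regions. This count was 2 without PFF+MLi-2 replicate 1 or PFF+MLi-2 replicate 3 and 3 without PFF replicate 1, beside 10.0%, 10.8% and 10.4% of all regions in those fits. The groups did not overlap at 9 of 39 regions (23.1%), beside 17.7% of all regions. Smad3 r28 (chr9:63665077-63665364, intronic) lay at 67.3, 69.1 and 74.6 in PFF and 25.8, 44.8 and 23.2 in PFF+MLi-2, a difference of -1.09 (SE 0.233, limma adjusted p = 0.204). Tgfb2 r8 (chr1:186685671-186685984, intronic) lay at 78.3, 62.1 and 74.3 in PFF and 91.2, 94.7 and 85.9 in PFF+MLi-2, a difference of 1.14 (SE 0.260, limma adjusted p = 0.219). Tgfb2 r20 was lower in PFF+MLi-2, at 76.3, 84.6 and 78.0 (difference -0.64, SE 0.260, limma adjusted p = 0.399). At all 3 regions the groups did not overlap, and none of the differences passed the adjusted threshold. The median difference was 0.07 over the 39 regions (0.02 without PFF replicate 2, 0.03 without PFF replicate 3, 0.04 without any one PFF+MLi-2 replicate and -0.03 when ranked by -log10 p-value) and 0.01 over all regions.

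PFF+Rab5 ASO was compared with PFF to ask what the Rab5 ASO altered in fibril-treated neurons, and this comparison held the most calls. Of 150 regions, 3 were gained and 4 lost (genome-wide 2.64% gained and 1.94% lost of 230866). The gained regions lay in the ligands Tgfb1 and Tgfb2 and in Tgfbr2, and the lost regions in Tgfbr1 and Tgfbr2. Tgfb1 r7 (chr7:25694161-25694443, over an exon with coding and UTR sequence) was called in the PFF+Rab5 ASO libraries with 28, 16 and 18 fragments, in no PFF library, and in 1 PBS and 1 PFF+MLi-2 library with 15 and 11. Tgfb2 r16 (chr1:186646592-186646744, intronic) had 16, 16 and 11 fragments, and Tgfbr2 r24 (chr9:116090018-116090193, over an exon with UTR sequence) had 16, 13 and 14. Neither of these 2 was called in any other group. At Tgfb2 r16 the peak of PFF+Rab5 ASO replicate 3 was 57 bp wide, narrower than any peak listed for the other groups. Those of PFF+Rab5 ASO replicate 1 and PFF+Rab5 ASO replicate 2 were 108 and 153 bp wide. Whether the gain of this region holds at an equal smallest width was not tested.

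Among the lost regions, Tgfbr1 r7 and Tgfbr2 r15 were the ones gained in PFF vs PBS, a comparison that shares the PFF libraries. Tgfbr2 r1 (chr9:116185065-116185235, 9705 bp upstream of Tgfbr2) was called with 11, 11 and 12 fragments in PBS, 14, 13 and 12 in PFF and 10 in 1 PFF+MLi-2 library. Tgfbr2 r4 (chr9:116166340-116166658, intronic) was called in all 9 libraries of the other 3 groups, with 15, 12 and 12 fragments for PBS, 12, 12 and 11 for PFF and 13, 14 and 16 for PFF+MLi-2. Over all 5 comparisons, which share libraries, 9 of the 171 regions were gained or lost at least once (5.26%, beside 7.04% of all regions). Of the 9, 5 were in Tgfbr2 and none lay within 1 kb of a start site, and Tgfb3, Tgfbr3, Smad3, Smad4 and Smad7 held none.

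**Figure D3:**
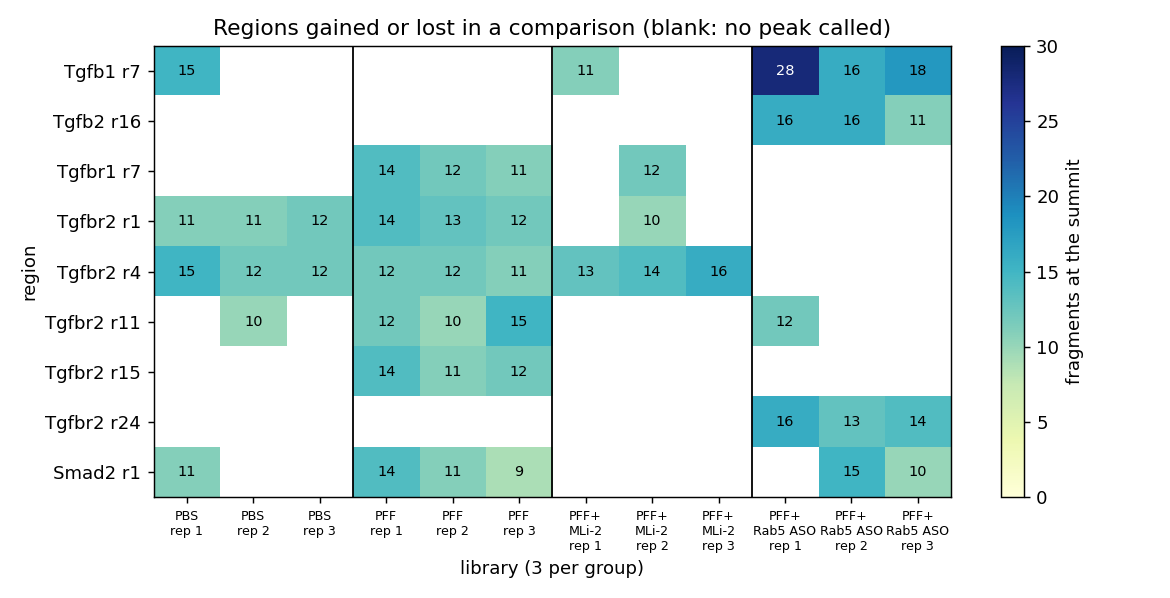
Fragments at the summit (colour and printed number) of the 9 regions gained or lost in any of the 5 comparisons, by library; blank cells had no called peak. Tgfbr2 r15 is filled only in the PFF libraries, Tgfbr2 r24 and Tgfb2 r16 only in the PFF+Rab5 ASO libraries, and Tgfbr2 r4 is blank only there.

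In PFF+Rab5 ASO vs PFF, limma called 0 regions of the 10 genes higher and 1 of 39 lower (genome-wide 1.97% higher and 1.86% lower). Leaving out any one library also lowered the genome-wide shares, to between 0% and 0.787% higher and 0% and 0.586% lower, and without PFF+Rab5 ASO replicate 1 no region of the genome was called. Of the regions of the 10 genes, 12 of 39 had an unadjusted p under 0.05 (6 higher, 6 lower), beside 21.1% of all regions. The groups did not overlap at 12 of 39 regions (30.8%), beside 25.9% of all regions. The region called was Tgfb2 r20, printed above with its E-box. It lay at 91.0, 86.7 and 96.1 in PFF and 65.6, 55.4 and 31.0 in PFF+Rab5 ASO, and the score fell by 1.84 (SE 0.288, limma adjusted p = 0.0178). The summit held 26, 23 and 30 fragments in PFF and 17, 14 and 12 in PFF+Rab5 ASO. The 3 PFF+Rab5 ASO libraries were the lowest of the 12 and the 3 PFF libraries the highest. The adjusted p became 0.0501 without PFF replicate 3, 0.0546 without PFF+Rab5 ASO replicate 1 and 0.0568 without PFF+Rab5 ASO replicate 3. With the replicate number as a block it was 0.0380.

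A further pair of regions came next by p-value in that comparison, in Smad7 and Smad3. Smad7 r5 (chr18:75378511-75379175, intronic) lay at 81.4, 73.5 and 61.5 in PFF and 42.5, 44.3 and 53.2 in PFF+Rab5 ASO, a difference of -0.92 (SE 0.245, limma adjusted p = 0.0674). Smad3 r15 (chr9:63706236-63706727, intronic) lay at 64.9, 78.8 and 65.7 in PFF and 34.6, 50.4 and 44.5 in PFF+Rab5 ASO, a difference of -0.89 (SE 0.243, limma adjusted p = 0.0728). The Smad7 promoter region went the other way, with a difference of 0.70 (SE 0.194, limma adjusted p = 0.0751). None of the 3 passed the threshold, and none had overlapping groups. In Smad7, the PFF+Rab5 ASO libraries were thus, by percentile, all above the PFF libraries at the promoter region and all below them at the intronic one. Divided by relative depth, the promoter summit held 48.2, 57.3 and 46.1 fragments with the Rab5 ASO and 63.1, 73.1 and 64.6 with PFF. The order there thus depended on the measure. At the intronic region these values were 16.8, 19.1 and 17.7 against 40.2, 40.7 and 38.7, the same order as by percentile. The median difference was -0.02 over the 39 regions (-0.05 to 0.02 when any one library was left out, above 0 without PFF replicate 1 or PFF+Rab5 ASO replicate 1, -0.10 by -log10 p-value and -0.06 over regions in all 6 libraries) and 0.01 over all regions.

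Each treated group was also set against PBS, whose libraries also serve in PFF vs PBS. For PFF+MLi-2 vs PBS, 0 of 134 regions were gained and 0 lost (genome-wide 0.225% and 0.577% of 200891). By limma 0 of 39 were called (0% of all regions), and 1 had an unadjusted p under 0.05, beside 5.77% of all regions. The groups did not overlap at 3 of 39 regions (7.69%), beside 10.3% of all regions. The region with the unadjusted p under 0.05 was Tgfb3 r3, at 34.0, 22.7 and 15.1 in PFF+MLi-2 and thus below all PBS libraries, as in PFF (difference -0.65, SE 0.245, limma adjusted p = 0.841). Tgfb2 r8 differed by 0.50 (SE 0.228, limma adjusted p = 0.864) and Tgfb3 r1 (chr12:86086625-86086983, 7584 bp upstream of Tgfb3 and within Ift43) by -0.38 (SE 0.201, limma adjusted p = 0.892). Tgfb2 r20 had a difference of 0.15 (SE 0.216), with overlapping groups.

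In PFF+Rab5 ASO vs PBS, 2 of 147 regions were gained (Tgfb2 r16 and Tgfbr2 r24) and 2 lost (Tgfbr2 r1 and Tgfbr2 r4), beside 2.59% and 0.991% of 227503 regions genome-wide. Limma called 0 regions of the 10 genes higher and 1 of 39 lower (genome-wide 1.00% and 0.631%). These genome-wide calls rested on every library: 31 regions were called higher and 4 lower without PBS replicate 3, 1 was called lower without PFF+Rab5 ASO replicate 1, and 0 were called without any one of the other 4 libraries or with the replicate number as a block. Of the regions of the 10 genes, 6 of 39 had an unadjusted p under 0.05 (1 higher, 5 lower), beside 18.7% of all regions. This count was 12 (3 higher, 9 lower) without PBS replicate 2, beside 17.1% of all regions in that fit, and 10 (4 higher, 6 lower) by -log10 p-value, beside 19.7%. The groups did not overlap at 10 of 39 regions (25.6%), beside 23.0% of all regions. The region called was Smad7 r5. It lay at 76.8, 78.7 and 76.5 in PBS, with 36, 34 and 33 fragments, and held 22, 20 and 23 fragments in PFF+Rab5 ASO. Its score fell by 1.17 (SE 0.229, limma adjusted p = 0.0402). The adjusted p rose above the threshold when any one of the 6 libraries was left out (0.0698 to 0.114) and with the replicate number as a block (0.0767). Tgfb2 r20 was also below all PBS libraries (difference -1.05, SE 0.252, limma adjusted p = 0.0627), as was Smad3 r15 (difference -0.79, SE 0.254, limma adjusted p = 0.129). The Smad7 promoter region was above all PBS libraries, with a difference of 0.47 (SE 0.231, limma adjusted p = 0.304). The median difference was -0.16 over the 39 regions and -0.01 over all regions.

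**Figure D4:**
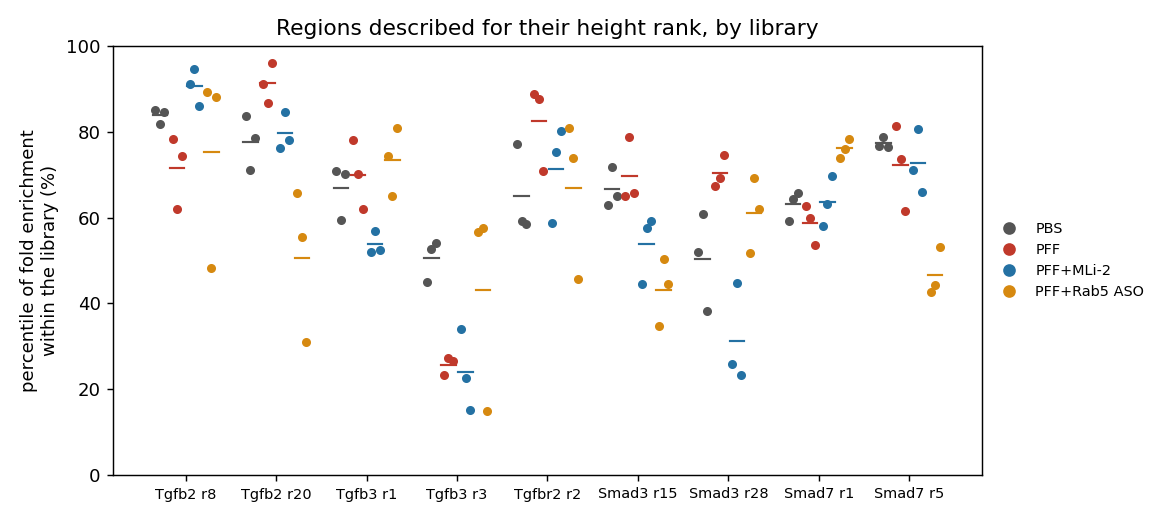
Percentile of fold enrichment (0 to 100%) in each library for the 9 regions described for their height; points are libraries and horizontal bars group means (n = 3). Tgfb2 r20 is highest in PFF and lowest in PFF+Rab5 ASO, while Smad7 r5 and the Smad7 promoter region (Smad7 r1) lie on opposite sides of the other groups in PFF+Rab5 ASO.

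**Figure D5:**
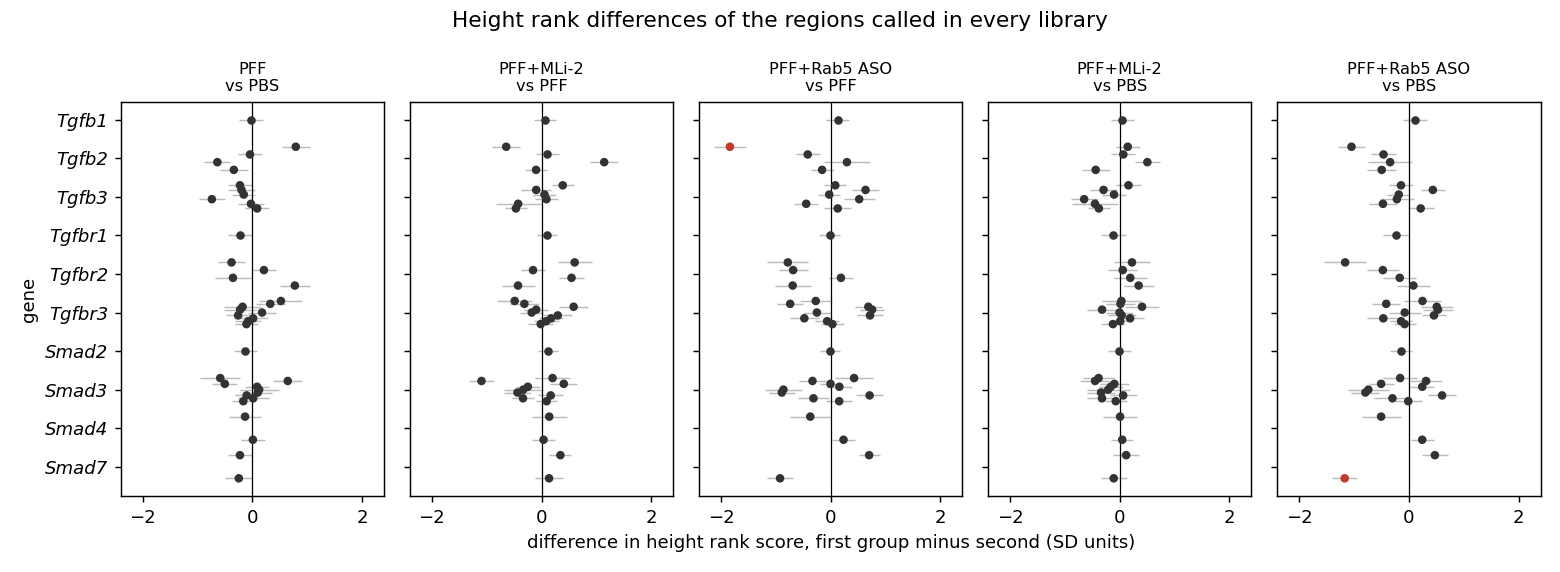
Difference in height score (first group minus second, in SD of the score) of the 39 regions present in all libraries, by gene and comparison; bars are standard errors and red marks a limma adjusted p under 0.05. The red points are Tgfb2 r20 in PFF+Rab5 ASO vs PFF and Smad7 r5 in PFF+Rab5 ASO vs PBS.

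Other genes of the pathway were counted in the same way, over 60 genes with 846 regions, of which 263 were present in all libraries. In PFF vs PBS, 11 of 740 of these regions were gained and 1 lost (1.49% and 0.135%, beside 1.10% and 0.405% of all regions), including a gained promoter region of Tgif1, a co-repressor of Smads. In PFF+MLi-2 vs PFF, 3 of 703 were gained and 11 lost (0.427% and 1.56%, beside 0.374% and 1.64%). The gained regions included a promoter region of Nedd4l, a ubiquitin ligase for Smads. In PFF+Rab5 ASO vs PFF, 9 of 763 were gained and 21 lost (1.18% and 2.75%, beside 2.64% and 1.94%). Promoter regions were lost in this comparison at Ltbp4 and Itgb8, which store and release latent ligand, at the inhibitors Ski, Smurf1 and Pmepa1, and at Ldlrad4, while one of Tgif1 was gained.

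Limma called 4 of the 263 pathway regions higher and 3 lower in PFF+Rab5 ASO vs PFF (1.52% and 1.14%, beside 1.97% and 1.86% of all regions). When any one library was left out these counts became 0 to 1 higher and 0 to 2 lower, and without PFF replicate 3 or without PFF+Rab5 ASO replicate 1 no pathway region was called. The genome-wide shares fell in the same fits, as given above. With the replicate number as a block 0 were higher and 2 lower, beside 1.17% and 1.14% of all regions. The higher regions belonged to the activin subunit gene Inhba (difference 1.07), to the BMP type I receptor gene Bmpr1a (1.18 and 1.03) and to Fkbp1a (1.16), whose product binds type I receptors. The lower ones belonged to the BMP type II receptor gene Bmpr2 (difference -1.45) and to the ubiquitin ligase genes Smurf1 (-1.01) and Nedd4l (-0.93). In PFF+Rab5 ASO vs PBS, 1 region was called higher (0.380%, beside 1.00% of all regions), in Zfyve9, which encodes the Smad anchor SARA (difference 1.26). This call was lost, as were nearly all genome-wide, when any one of the 6 libraries was left out and with the replicate block. In the 3 other comparisons limma called 0 of 263, with 20 (PFF against PBS), 28 (PFF+MLi-2 against PFF) and 7 (PFF+MLi-2 against PBS) at an unadjusted p under 0.05. These are 7.60%, 10.6% and 2.66% of the pathway regions, beside 9.72%, 11.4% and 5.77% of all. For PFF+Rab5 ASO the counts were 45 against PFF and 46 against PBS (17.1% and 17.5%, beside 21.1% and 18.7% of all). In PFF+MLi-2 vs PBS 4 of 654 pathway regions were gained and 2 lost (0.612% and 0.306%, beside 0.225% and 0.577%), with a promoter region of Tgif1 gained. In PFF+Rab5 ASO vs PBS 11 of 719 were gained and 11 lost (1.53% each, beside 2.59% and 0.991%), with promoter regions gained at Inhbb and Tgif1 and lost at Ltbp4 and Ldlrad4.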

How the data were processed

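ATAC-seq was performed on 12 libraries. According to the paper's methods, the authors used Trim Galore 0.6.7 for trimming, Bowtie2 2.5.1 with default settings for alignment to GRCm38 and MACS2 2.2.7.1 to call peaks in each library, without pooling. MACS2 options, duplicate handling and Tn5 shift are not given in the sources used here. For each peak the deposited lists give its summit, a score, -log10 values of p and q, and a ratio, the fold enrichment over local background. The deposited score was not used. They hold no read counts, so a count-based differential test was not run here.

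Peaks of all libraries were merged at 1 bp of overlap. Genes were from GENCODE vM21, and promoters lay within 1 kb of a TSS. The percentile of a region is that of its highest fold among all peaks of the library. Summit fragments were solved from fold and p-value, and came out whole (within 0.01) for 100% of peaks. Relative depth was the most frequent background divided by the smallest peak width. Height tests used limma 3.58.1 (R 4.3.3) on the 6 libraries of a comparison, without covariates, with Benjamini-Hochberg adjustment over 72465 regions. In simulated data 200 of 72465 regions were shifted. A score shift of 2 was found for 47% to 62% of the regions so shifted, and a shift of 1 for 0% to 4%. In PFF+Rab5 ASO vs PFF more regions were called (1426 higher and 1346 lower), so these shares do not give the power of that comparison. The other steps used Python 3.11.15, numpy 2.4.6, pandas 2.3.3, scipy 1.17.1 and matplotlib 3.10.9.

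The genes and lists were chosen with earlier results of these data known. Regions named are the strongest promoter region of each gene, all regions gained, lost or called by limma, and the 3 with the smallest p per comparison. Pathway genes are named only for such promoter or limma calls. A pathway gene that met this rule is not reported here. The study's methods count a pregnancy as 1 biological replicate and divide its cultures among groups, but the labels do not tie a replicate number to a pregnancy.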

Additional observations from a re-analysis of the deposited data

How the results depend on the processing

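Calls near the threshold limit these results: gained and lost regions rest on 9 to 28 fragments. Height shifts of 1 were mostly missed in simulations with 200 shifted regions, which do not give the power where more regions differ. Height tests cover 39 of 171 regions. When the same number of top peaks was taken from every library, gained and lost counts became 1 and 0 of 118 (PFF vs PBS; all regions 1.02% and 0.603%), 2 and 1 of 124 (PFF+MLi-2 vs PFF; 0.712% and 1.07%), 4 and 7 of 122 (PFF+Rab5 ASO vs PFF; 2.51% and 2.44%), 1 and 0 of 122 (PFF+MLi-2 vs PBS; 0.415% and 0.466%) and 4 and 4 of 125 (PFF+Rab5 ASO vs PBS; 2.44% and 1.67%). When 2 of 3 libraries sufficed they were 9 and 4 of 142, 3 and 15 of 140, 10 and 12 of 150, 3 and 3 of 134, and 8 and 5 of 147 in the same order, beside 4.32% and 2.47%, 1.84% and 6.06%, 6.62% and 5.69%, 1.57% and 3.67%, and 6.74% and 3.94% of all regions. With 2 kb upstream, 1 region was lost in PFF+Rab5 ASO vs PBS. Leaving out 1 library, which relaxes the rule to 2 against 3, gave, again in this order, 3 to 6 gained and 0 to 2 lost, 0 to 3 and 3 to 9, 3 to 6 and 4 to 9, 0 to 2 and 0 to 3, and 2 to 8 and 2 to 5. The matching ranges over all regions were 1.5% to 3.01% and 0.6% to 1.61%, 0.570% to 0.977% and 2.65% to 3.72%, 3.17% to 4.45% and 2.42% to 3.73%, 0.363% to 1.12% and 1.02% to 2.37%, and 3.03% to 5.27% and 1.31% to 2.72%. The highest values were those without PFF replicate 3 (6 gained in PFF vs PBS, 9 lost in PFF+MLi-2 vs PFF), PBS replicate 1 (8 gained in PFF+Rab5 ASO vs PBS), PFF+Rab5 ASO replicate 2 (6 gained in PFF+Rab5 ASO vs PFF) and PFF+Rab5 ASO replicate 1 (9 lost there). A stricter q-value and windows at summits kept all gained and lost counts within 1.5 times.

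Ranking by -log10 p-value called 4 regions for PFF+Rab5 ASO against PFF (Tgfb2 r20, Smad7 r5, Smad3 r15 and Tgfbr3 r26), beside 1.45% higher and 1.17% lower of all regions, and 0 against PBS, beside 0.272% and 0.207%. There log2 fold enrichment called 2 (Smad7 r5 and Tgfb2 r20, adjusted p = 0.0366 in limma), beside 1.92% and 1.59%. Without a single library the count was 0 to 1 for PFF+Rab5 ASO against PFF and 0 against PBS. No difference given for a region of the 10 genes changed sign under the 13 or 14 alternatives that could be run for it, and the pathway differences were not checked for this. Fragments divided by depth were not among these alternatives. The median over the 39 regions changed sign, to -0.03 by -log10 p-value in PFF+MLi-2 vs PFF, and for the Rab5 ASO against PFF to 0.02 and 0.000642 when PFF replicate 1 or PFF+Rab5 ASO replicate 1 was dropped. Of the promoter percentiles under other settings, 99 group means stayed within 1 SD of the reported value and 60 did not. Replicate numbers are shared between groups. Deviations of same-numbered libraries correlated at 0.00513 to 0.0788 and of others at -0.0705 to 0.0279, and in 33 of 36 cases a library correlated best with its own number in another group. This is a hint of pairing from the data, although no correlation passed 0.1. No label states a pairing, so the block stayed an alternative, and the main tests do not take pairing into account. With a replicate block Tgfb2 r20 kept its call (limma adjusted p = 0.0380) and Smad7 r5 did not (0.0767), which leaves 0 regions in PFF+Rab5 ASO vs PBS. The cause of these shifts was not tested.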
